A study of Mus musculus with 3 samples.

Results

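T cell receptors of the alpha beta kind are built from variable (V), diversity (D) and joining (J) gene segments, and the RNA of these segments was described in 3 libraries of mouse regulatory T cells (Treg). Members were all genes of a GENCODE mouse annotation whose symbols start with Trav, Traj, Trbv, Trbd or Trbj. All 239 were found among the 50600 genes of the count tables. They comprised 128 Trav, 60 Traj, 35 Trbv, 2 Trbd and 14 Trbj segments, of which 43 carry a pseudogene annotation. The study profiled primary cells labelled regulatory T cells of strain C57BL/6NJ by RNA sequencing, as biological replicates 2, 3 and 4. Per the file headers the cells had been activated for 16 hours, and the linked differentiation protocol is, by its name, for CD4 T cells. Age and sex are not given, no transgene or other agent is named, and all 3 libraries carry 1 donor identifier. They form 1 group, so the comparisons are between segments within each library and between the libraries.

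During thymic development the recombinase made by Rag1 and Rag2 joins a V to a J segment at the alpha locus, and V, D and J segments at the beta locus. The joined V exon is spliced to a constant gene, Trac for the alpha chain and Trbc1 or Trbc2 for the beta chain. Each T cell clone thereby transcribes its own combination, and a population of many clones, as in Treg, transcribes many. In bulk RNA, fewer cells that use a segment and less RNA per cell cannot be told apart.

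The beta D and J segments are short and are shown because their levels are compared below. Sequences are those of the annotated transcripts in GENCODE M21 (mm10), on the plus strand of chromosome 6. Capitals in the D segments mark the letters that differ between them once their shared ends are set aside. Capitals in the J segments mark a match to the Phe-Gly-X-Gly codon motif, which in a joined receptor closes the antigen-binding loop. Trbj2-7 (chr6:41543810-41543856) held the highest J level, its neighbour Trbj2-6 (chr6:41543598-41543645) is an annotated pseudogene, and Trbj1-1 (chr6:41533864-41533911) was the lowest. Trbj1-6 and Trbj1-7 lack the motif without being annotated as pseudogenes.
Trbd1: gggacAgggggc
Trbd2: gggacTGGgggggc
Trbj1-1: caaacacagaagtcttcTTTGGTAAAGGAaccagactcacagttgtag
Trbj1-6: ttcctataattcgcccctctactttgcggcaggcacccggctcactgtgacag
Trbj1-7: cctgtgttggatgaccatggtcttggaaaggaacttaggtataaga
Trbj2-5: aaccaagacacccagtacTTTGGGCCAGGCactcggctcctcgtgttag
Trbj2-6: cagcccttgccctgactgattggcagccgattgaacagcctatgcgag
Trbj2-7: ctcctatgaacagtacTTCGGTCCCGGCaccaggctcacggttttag
The motif was found in 11 of 13 Trbj and 42 of 51 Traj segments that are not annotated as pseudogenes, and in 0 of 1 and 1 of 9 annotated pseudogenes of these classes. Among 818 other transcripts of 29 to 72 letters, the range of the J segments, 19 (2.32%) held it on either strand, and no J segment held it on the opposite strand. A match describes the letters alone. At the alpha locus on chromosome 14, a comparison of copies shows how alike V segments can be. The final 60 letters of Trav11 (chr14:53519303-53519859) and Trav11d (chr14:52824357-52824912) were the same, whereas those of Trav14-3 (chr14:53763173-53763694) and Trav14n-3 (chr14:53370077-53370575) differed at the 2 letters in capitals.
Trav11: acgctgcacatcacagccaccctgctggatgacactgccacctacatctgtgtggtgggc
Trav11d: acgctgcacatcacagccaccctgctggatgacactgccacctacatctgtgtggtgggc
Trav14-3: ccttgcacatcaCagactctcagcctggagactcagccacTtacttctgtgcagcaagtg
Trav14n-3: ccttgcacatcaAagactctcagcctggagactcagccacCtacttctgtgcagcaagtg
The J segments nearest to Trac held the highest Traj levels per length. Of these, 2 are shown beside Traj18, the J segment of the invariant receptor of natural killer T cells. Capitals mark the same motif as in the beta J segments.
Traj1: gtgtgcagatagctgctccatctttcctg
Traj2: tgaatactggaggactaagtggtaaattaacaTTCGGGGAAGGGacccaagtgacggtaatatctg
Traj18: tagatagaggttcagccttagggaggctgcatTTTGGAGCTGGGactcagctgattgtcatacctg
Library totals were 41222058, 47665060 and 99097524 assigned fragments in replicates 2, 3 and 4. All 6 Treg markers reached 3 fragments in every library, with Foxp3, the transcription factor that defines these cells, at 80.9 ± 3.97 TPM (a level scaled for transcript length and library total; SD, n = 3). Xist, which is transcribed from the inactive X chromosome, had 27625, 85 and 18895 fragments in replicates 2, 3 and 4, and the Y-linked gene Ddx3y had 8, 2932 and 4314. The libraries thus differed in X- and Y-linked RNA although they carry 1 donor identifier, and results without each library are given in the closing section. Of the markers of other cells, Zbtb16, Rag2 and Ptcra had 0 fragments. Rag1 and Dntt, listed with Rag2 and Ptcra as thymocyte markers, had fragments in every library. In replicates 2, 3 and 4 Rag1 had 17, 5 and 10 fragments and Dntt had 11, 3 and 9. Klrb1c had 0, 0 and 4 fragments. Of 348 immunoglobulin V segments, 17 had a fragment and 0 reached 3 fragments in every library. B cell markers summed to between 5.10 and 9.14 TPM in a library. Of the CD8 T cell markers, Cd8b1 was at 26.9 ± 2.60 TPM and Cd8a at 0.416 ± 0.0858 TPM. Of 4 gamma delta markers listed, only Trdc matched a symbol in the annotation, at 2.99 ± 0.299 TPM. The part of these cells in the segment counts was not tested.

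The segments held 46914 fragments in all, and 113 of 239 (47.3%) had 3 or more fragments in every library, the measure of detection used here. The 113 comprised 61 of 128 Trav, 14 of 60 Traj, 22 of 35 Trbv, both Trbd and all 14 Trbj segments. A further 67 segments had 0 fragments in all 3 libraries, 52 of them Trav, 11 Trbv and 4 Traj. Of the segments not annotated as pseudogenes, 107 of 196 (54.6%) were detected, against 6 of 43 (14.0%) annotated pseudogenes.

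Class totals differed little between libraries for the V segments and more for Traj. The Trbv class took 127, 131 and 125 CPM (fragments scaled for the library total only) in replicates 2, 3 and 4, and the Trav class 84.6, 92.0 and 84.7 CPM. The counting intervals (95%, Wilson) of Trav ran from 81.9 to 87.5 CPM in replicate 2 and from 89.3 to 94.7 CPM in replicate 3, without overlap. Trbj segments took 23.6, 22.6 and 24.6 CPM, and Trbd segments 5.87, 5.73 and 4.20 CPM. The Traj class took 7.47, 4.87 and 8.49 CPM, lowest in replicate 3, where the interval ran from 4.28 to 5.54 CPM.

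Per length, the summed Trbv level took a similar share of the level of its constant genes in all 3 libraries. Trbv segments summed to 67.1%, 66.9% and 67.5% of the TPM of Trbc1 and Trbc2 together. Trav segments summed to 42.7%, 44.7% and 43.2% of the TPM of Trac, which was at 1743 ± 26.3 TPM. The counting program by default drops fragments with more than 1 alignment or more than 1 gene, which bears on these shares for V segments with near-identical copies and for fragments that span a V, J and constant gene.

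The Trbv segments, each of which supplies most of the beta chain's variable domain, were used broadly, and Trbv1, Trbv13-1, Trbv13-2 and Trbv31 were among the 5 highest in every library. Trbv1 had 101, 123 and 109 TPM in replicates 2, 3 and 4. Trbv13-2, the V beta 8.2 segment, had 116, 117 and 96.2 TPM. Trbv31, which lies downstream of the constant genes on the opposite strand (chr6:41557691-41558452), had 108, 92.8 and 121 TPM. These ranges overlap, so the order of the 3 leading segments (means of 111 ± 11.3, 110 ± 11.8 and 107 ± 14.2 TPM, SD, n = 3) does not hold beyond the spread between libraries. Trbv13-1 followed at 101 ± 8.46 TPM and Trbv3 at 86.6 ± 7.71 TPM. The 3 Trbv13 segments, the V beta 8 family, together held 27.1 ± 1.21% of the Trbv level. Trbv19, a usual partner of the invariant alpha chain of mucosal-associated invariant T cells, had 53.6, 42.2 and 50.3 TPM. Trbv29, the V beta 7 segment of natural killer T cell receptors, had 30.4, 21.7 and 22.5 TPM.

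**Figure D1:**
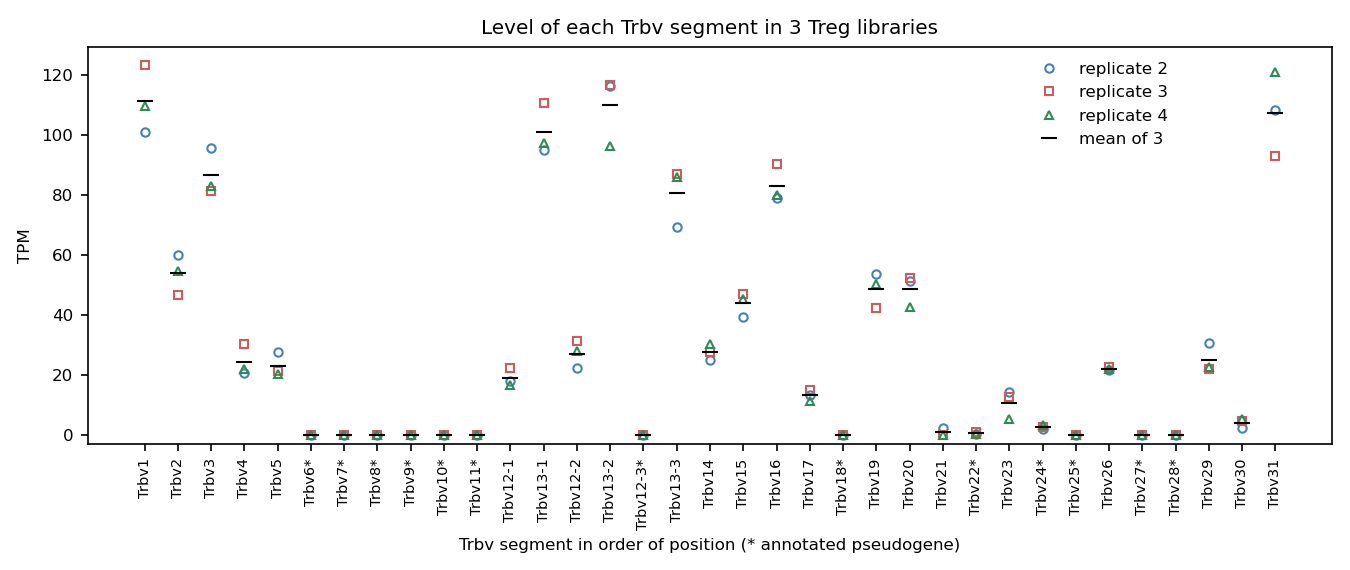
Level in TPM (vertical axis) of each Trbv segment in order of position (horizontal axis), with a marker for each library and a bar at the mean of 3. Of the 35 segments 11, all annotated as pseudogenes, lie at 0, and Trbv1, Trbv13-2, Trbv31 and Trbv13-1 lie above 100 TPM on average.

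Trbv detection followed the annotation closely. Of 22 Trbv segments not annotated as pseudogenes, 21 were detected, and the exception, Trbv21, had 11, 0 and 0 fragments. Of 13 annotated Trbv pseudogenes, 11 had 0 fragments and Trbv24 was detected, with 8, 13 and 32 fragments (2.55 ± 0.635 TPM). The lowest detected segment not annotated as a pseudogene was Trbv30, with 2.20, 4.58 and 5.31 TPM. Pseudogenes held 0.272 ± 0.0599% of the Trbv level.

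The effective number of segments, the inverse Simpson index of the shares of a class, states how many equally used segments would give the same evenness. For Trbv it was 14.3, 14.2 and 13.9 in replicates 2, 3 and 4 (mean 14.1 ± 0.189, SD, n = 3). The 5 highest Trbv segments of each library held 48.4 ± 0.0670% of the class level.

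The Trbd segments, the short D segments between V and J in the beta chain, both had fragments in all libraries. Trbd1 had 167, 180 and 258 fragments and Trbd2 had 75, 93 and 158. Per length, Trbd1 was higher than Trbd2 in 3 of 3 libraries, at 1140, 1046 and 736 TPM against 439, 463 and 386 TPM. At 12 and 14 letters the D segments are far shorter than a V segment, so their TPM values are set only against each other. Fragments that also overlap a V, J or constant gene are dropped by default. Trbd levels therefore need not follow the use of these segments in joined receptors, which was not tested.

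All 14 Trbj segments, which lie in a group before each beta constant gene, had 10 or more fragments in every library. Fragments that also overlap a V segment or a constant gene are dropped by default. Trbj levels therefore need not follow the use of these segments in joined receptors, which was not tested. Trbj2-7, the highest, had 181, 233 and 270 TPM, and it led the class in each library. Trbj2-6 came next by mean, at 116, 148 and 230 TPM, although the annotation lists it as a pseudogene and its printed sequence lacks the motif. In replicate 2 it lay below several Trbj segments, Trbj2-5 and Trbj2-1 among them. Trbj2-5 had 139, 144 and 153 TPM, and Trbj2-1 had 139, 141 and 99.9 TPM. Trbj1-1, the lowest, had 51.2, 18.9 and 54.2 TPM and lay below every other Trbj segment in each library. The segments between Trbj2-7 and Trbj1-1 overlapped with their neighbours in the order of means.

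**Figure D2:**
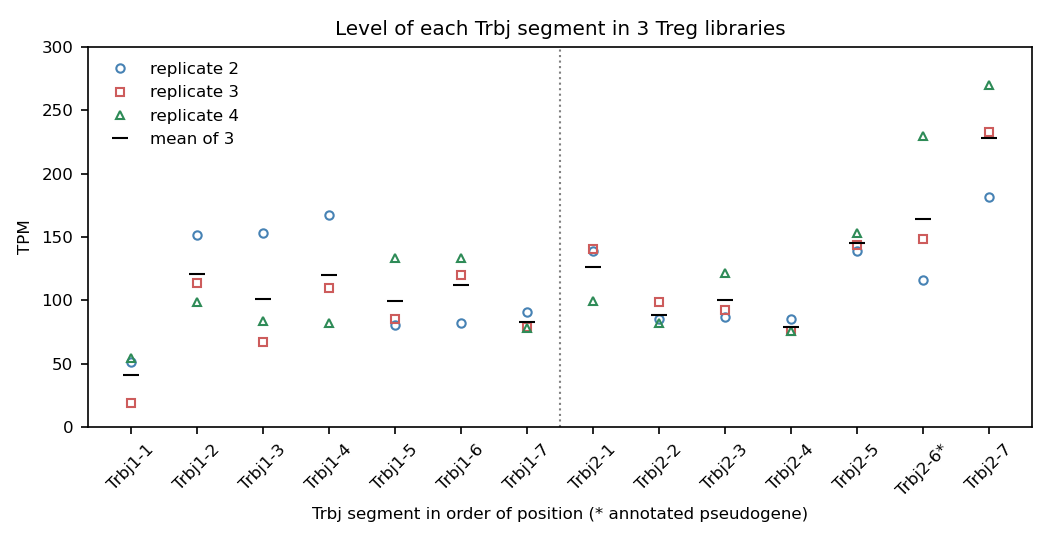
Level in TPM (vertical axis) of the 14 Trbj segments in order of position (horizontal axis), with a marker for each library and a bar at the mean of 3, and a dotted line between the Trbj1 and Trbj2 groups. Trbj2-7 is highest and Trbj1-1 lowest in each library, and replicate 2 lies above the others at Trbj1-2, Trbj1-3 and Trbj1-4.

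The Trbj2 group stood above the Trbj1 group in 3 of 3 libraries, by a margin that differed between them. The log2 ratio of their summed TPM was 0.10, 0.65 and 0.64 in replicates 2, 3 and 4 (0.46 ± 0.31, SD, n = 3; p = 0.25, exact two-sided sign-flip permutation test, the smallest value that 3 libraries allow). Without the pseudogene Trbj2-6, the log2 ratio of the sums, 6 segments against 7, was -0.12, 0.40 and 0.27 (0.19 ± 0.27; p = 0.50, the same exact permutation test), so that the Trbj2 sum lay below the Trbj1 sum in replicate 2. The share of Trbj2 was 51.7%, 61.1% and 60.9% of the class. The effective number of Trbj segments was 12.6, 11.7 and 11.3.

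Trav segments, the V segments of the alpha chain, were the most numerous class and had the highest mean effective number. From fragment shares, however, Traj lay above Trav in replicate 4, at 35.6 against 35.4, and below it in replicates 2 and 3. Trav14n-3 had 54.5, 53.3 and 37.2 TPM in replicates 2, 3 and 4. Trav4-4-dv10, a segment also listed for the delta chain, had 39.0, 38.5 and 39.1 TPM, so Trav14n-3 lay above it in replicates 2 and 3 and below it in replicate 4. Trav3-3 (36.5 ± 5.30 TPM), Trav14-2 (36.0 ± 6.38 TPM) and Trav13-1 (33.8 ± 11.3 TPM) followed, within their spread of each other. The 9 segments of the Trav14 family together held 21.8 ± 1.45% of the Trav level. The effective number was 34.8, 33.5 and 35.5 (34.6 ± 0.990), and the 5 highest segments held 26.7 ± 0.593% of the class. Among the 20 annotated pseudogenes, 14 had 0 fragments, and the highest was Trav8-2, at 4.62, 4.97 and 10.2 TPM.

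Level along the Trav locus was uneven. The 64 segments nearest to Trac held 78.9 ± 0.663% of the Trav level, a log2 ratio over the 64 farthest segments of 1.96, 1.91 and 1.85 (1.91 ± 0.06, SD, n = 3; p = 0.25, exact two-sided sign-flip permutation test, the smallest value possible). The farther segments include most copies whose symbols carry a d or an n. The 55 segments without such a suffix held 75.0 ± 0.634% of the level, the 39 with d held 11.4 ± 0.758% and the 34 with n held 13.5 ± 0.568%. Of those 3 sets, 42, 11 and 8 segments were detected.

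**Figure D3:**
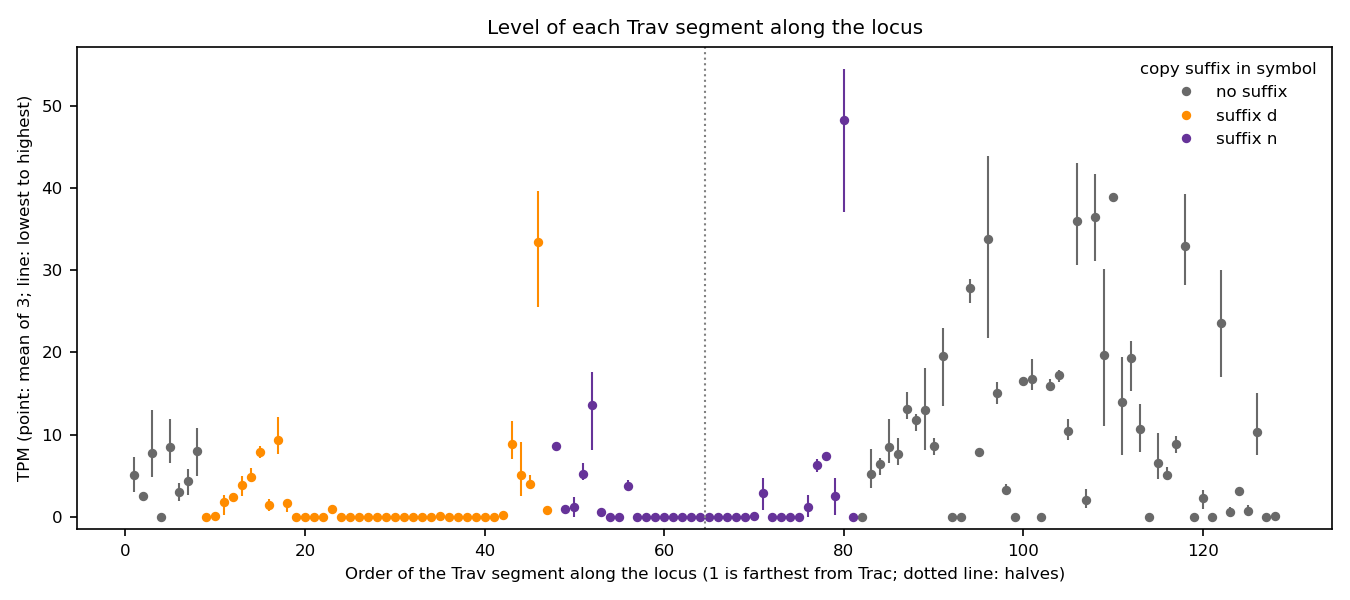
Level in TPM (vertical axis; point, mean of 3 libraries; line, lowest to highest) of the 128 Trav segments by order along the locus (horizontal axis), coloured by the copy suffix in the symbol, with a dotted line between the 64 farthest from Trac and the 64 nearest. Long runs of segments with d or n lie at 0, and Trav14n-3 is the highest point.

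Most Trav segments without fragments had sequence that another gene repeats. Each V transcript was read in windows of 50 letters, and a window counted as unique where no other gene's transcript in GENCODE M21 holds it. Of 108 Trav segments not annotated as pseudogenes, 38 had no unique window, and of these 34 had 0 fragments and 0 were detected. Of the 41 with 50% or more of their windows unique, 0 lacked fragments in all libraries and 38 were detected. The 29 between these bounds included 22 that were detected. These windows were chosen after the counts had been seen, and the length of the reads is not given in the sources used here. Levels of Trav segments with few unique windows are therefore uncertain, and a count of 0 there does not show that the segment was not transcribed. For Trbv the picture differed, since 10 of the 11 segments with 0 fragments had 50% or more of their windows unique.

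**Figure D4:**
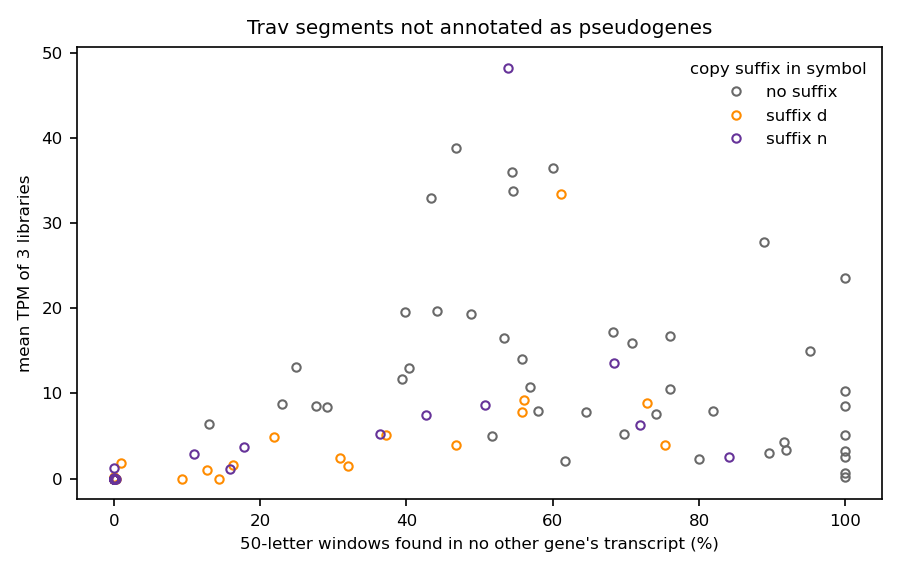
Mean level in TPM of 3 libraries (vertical axis) against the share of 50-letter windows found in no other gene's transcript (horizontal axis, percent) for the 108 Trav segments not annotated as pseudogenes, coloured by copy suffix. At 0% of windows unique the highest mean is 1.23 TPM, and Trav14n-3 stands at 53.8% and 48.3 TPM.

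With the analysis restricted to the Trav segments with 50% or more of their windows unique, 35 in the nearer set and 18 in the farther set, the log2 ratio of nearer to farther segments was 1.61 ± 0.07 (SD, n = 3; p = 0.25, exact two-sided sign-flip permutation test). That is a ratio of sums over sets of unequal size. As a ratio of mean levels per segment it was 0.66 ± 0.07 on the log2 scale (p = 0.25, the same exact permutation test), above 0 in 3 of 3 libraries.

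The alpha chain segments of invariant receptors were low or had no fragments. Trav11 and Trav11d, which encode the V part of the natural killer T cell alpha chain, had 0 fragments in all libraries, where 3 fragments in the shallowest library would give 0.717 and 0.719 TPM. Neither has a unique window of 50 letters over its whole transcript, so a stretch of 50 letters from either matches more than 1 gene. Their final letters, printed above, are the same. Another copy, Trav11n, with 78.6% of windows unique, had 3, 2 and 5 fragments. Traj18, the partner J segment, had 3, 2 and 10 fragments. Trav1 and Traj33, the segments of the mucosal-associated invariant T cell alpha chain, had 33, 26 and 33 fragments and 3, 0 and 6 fragments.

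Traj segments, the J segments of the alpha chain, had few fragments each, 308, 232 and 841 in all in replicates 2, 3 and 4. Fragments that also overlap a V segment or Trac are dropped by default. Traj counts and levels therefore need not follow the use of these segments in joined receptors, which was not tested. Levels were higher toward Trac. From the 10 segments farthest from Trac (Traj61 to Traj52) to the 10 nearest (Traj11 to Traj1), the summed means per block of 10 were 9.20, 27.6, 53.7, 64.8, 85.9 and 175 TPM. The 30 nearest segments held 75.9%, 77.0% and 81.1% of the class, a log2 ratio over the 30 farthest of 1.66, 1.74 and 2.10 (1.83 ± 0.23, SD, n = 3; p = 0.25, exact two-sided sign-flip permutation test, the smallest value possible). Across the 60 segments Spearman's rho between order and mean TPM was 0.80, and 0.68, 0.53 and 0.83 in the separate libraries. The segments share a locus, a library and its depth. The 3 segments next to Trac by number, Traj1, Traj2 and Traj3, had 13, 30 and 18 fragments in replicate 2, 22, 8 and 15 in replicate 3, and 18, 46 and 34 in replicate 4. Traj1, an annotated pseudogene of 29 letters, had the highest mean per length, 37.0 ± 15.8 TPM. That rank depends on its short length. By mean CPM, Traj1 (0.320) lay below Traj2 (0.453), Traj6 (0.412) and Traj11 (0.328).

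**Figure D5:**
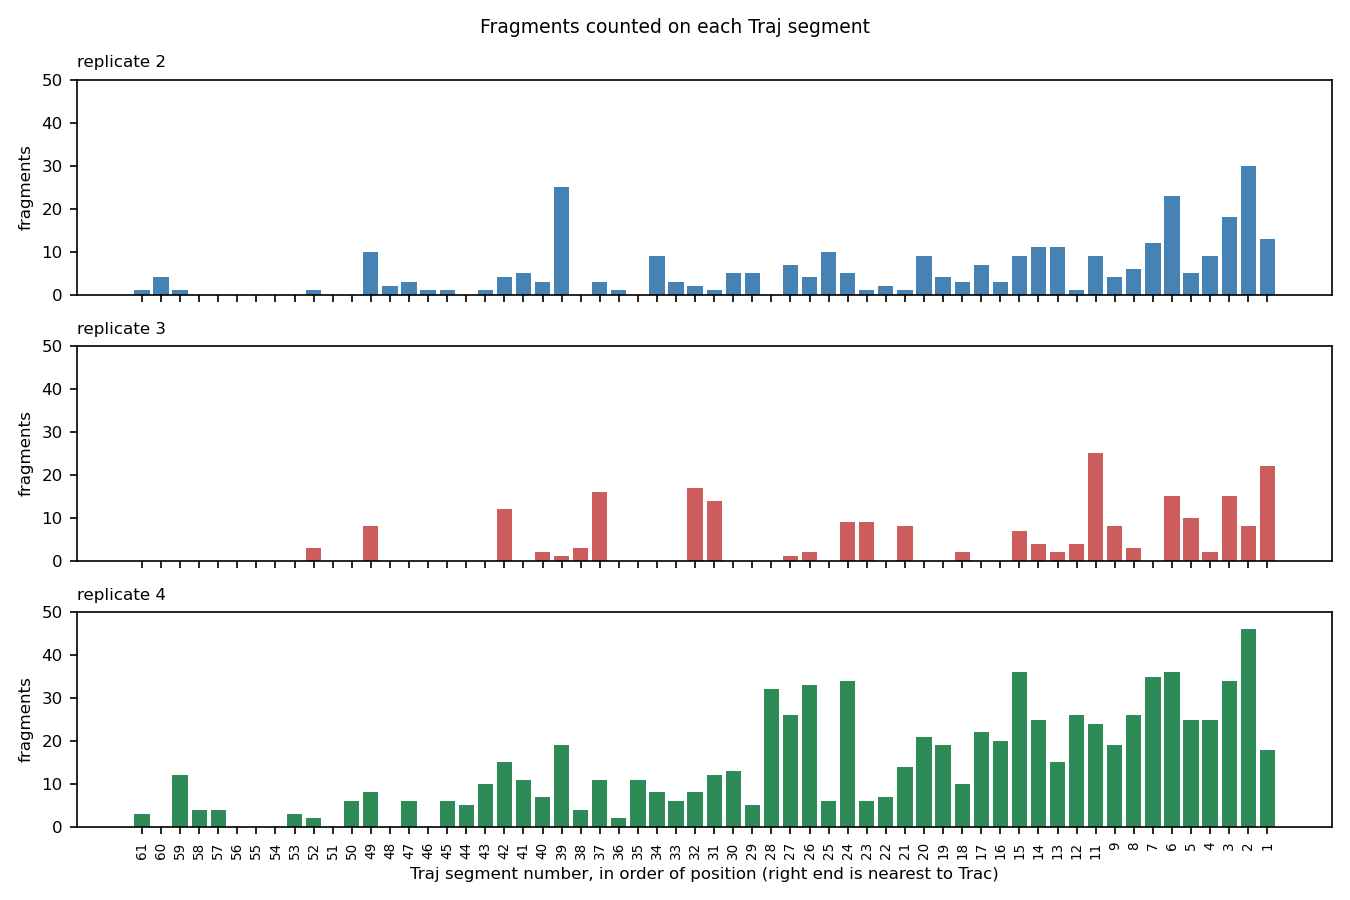
Fragments counted (vertical axis) on each of the 60 Traj segments by order of position (horizontal axis, segment number, with the right end nearest to Trac), with a panel for each library. The 30 nearest segments hold 228 of 308 fragments in replicate 2, 170 of 232 in replicate 3 and 670 of 841 in replicate 4.

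Traj counts were uneven between libraries. In replicate 3, 32 of 60 Traj segments had 0 fragments, against 12 in replicate 2 and 7 in replicate 4, although replicate 3 held more fragments in total than replicate 2. The effective number was 23.8, 14.1 and 34.6 from TPM shares and 24.0, 17.4 and 35.6 from fragment shares. With the correction for depth, computed from pairs of fragments, the values from fragment shares were 25.9, 18.7 and 37.1, again lowest in replicate 3.

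Agreement between libraries was closest for Trbv, whose segments had the most fragments. Pearson's r of TPM between pairs of libraries was 0.978 to 0.984 across the 35 Trbv segments, 0.925 to 0.945 across the 128 Trav segments, 0.406 to 0.849 across the 14 Trbj segments and 0.422 to 0.681 across the 60 Traj segments. These values are across segments, which share library, depth and locus. The Trbv, Trav and Traj sets include segments with 0 fragments in all libraries. Over segments with a fragment and no pseudogene annotation, Pearson's r was 0.963 to 0.974 across 22 Trbv and 0.896 to 0.923 across 70 Trav segments. The median coefficient of variation of detected segments was 12.4% for Trbv, 21.6% for Trav, 21.2% for Trbj and 47.9% for Traj. Over all genes with summed counts in the range of each class it was 18.2%, 28.2%, 21.9% and 41.4%.

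The libraries were then compared gene by gene with a chi-square test of equal rates, adjusted over all 13688 genes with a summed count of 30 or more (Benjamini-Hochberg). Calls needed an adjusted p under 0.05 and at least 2-fold between the highest and lowest CPM. Of 121 segments tested 36 (29.8%) were called, against 11.0% of all genes tested. With no minimum on the ratio, 69 segments (57.0%) were called against 70.5% of all genes tested. Most segments have few fragments, and among genes with summed counts of 30 or more and under 300, 33 of 75 segments (44.0%) were called against 42.5% of all genes. That share is near the background. Among genes with 300 or more fragments, 3 of 46 segments (6.52%) were called against 0.935% of all genes. That band has no upper limit, and its segments and other genes were not matched for count. The median coefficient of variation over all detected segments was 20.1%. Over all genes with summed counts in their range it was 21.1%. By class, 17 of 62 Trav, 14 of 21 Traj, 1 of 22 Trbv, 0 of 2 Trbd and 4 of 14 Trbj segments were called. All 21 Traj segments tested had summed counts of 30 to 99, a range in which 49.1% of all genes were called. The bands of summed counts were chosen after the calls had been seen.

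The 3 called segments with 300 or more fragments each had a different order of libraries. Trav9-4 had 11.0, 30.2 and 18.0 TPM in replicates 2, 3 and 4 (ratio 2.83; chi-square test, adjusted p = 4.99e-12). Trbj2-6 was lowest in replicate 2 and highest in replicate 4, with a ratio of 2.00 (adjusted p = 9.35e-08), and it was not called with DESeq2 size factors (ratio 1.99) or with library totals alone (ratio 1.97). Trbj1-4 had 167, 109 and 82.5 TPM, highest in replicate 2, also with a ratio of 2.00 (adjusted p = 2.78e-06). Without replicate 2 neither Trav9-4, Trbj2-6 nor Trbj1-4 was called. Without replicate 3 only Trbj1-4 of these was called, and without replicate 4 only Trav9-4. The only Trbv segment called was Trbv23, with 14.2, 12.7 and 5.13 TPM (ratio 2.73, adjusted p = 4.32e-08, chi-square test), and it was not called without replicate 4.

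The widest ratios were in segments with few fragments. Traj39 had 25, 1 and 19 fragments and Trav13n-4 had 25, 1 and 36, both lowest in replicate 3 with a ratio of 28.5. Traj28 had 0, 0 and 32 fragments, with fragments only in replicate 4, where its rate was at least 5.13-fold higher than in replicate 3, taken at its floor of 3 fragments. Trav6d-3 had 1, 14 and 27 fragments, and Traj27 had 7, 1 and 26. With a library left out, several of these had fewer than 30 fragments and were not tested, so the call was lost to that minimum with the ratio still wide. Without replicate 4 this held for Traj39 and Trav13n-4, each with 26 fragments and a ratio of 28.5, and without replicate 2 for Traj39, with a ratio of 9.14. Trav6d-3 was not tested without replicate 3 (ratio 11.3) or without replicate 4 (ratio 12.3), nor Traj27 without replicate 2 (ratio 12.5) or without replicate 4 (ratio 7.97). Where the library with the lowest rate was the one left out, the ratio itself was under 2, at 1.08 for Trav6d-3 without replicate 2, 1.65 for Trav13n-4 without replicate 3 and 1.56 for Traj27 without replicate 3. Traj28 had no fragments without replicate 4. Of the 36 called segments the highest rate was in replicate 2 for 13, in replicate 3 for 9 and in replicate 4 for 14.

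Genes that act in V(D)J joining were listed beside the segments. Of 10 such genes, 9 had 3 or more fragments in every library, and 1 of the 8 tested was called, against 11.0% of all genes tested. Xrcc5 and Xrcc6, the Ku subunits that bind broken DNA ends in all cells, were at 150 ± 7.42 and 96.4 ± 2.19 TPM. Rag1, a recombinase subunit, had 17, 5 and 10 fragments and was the gene called (ratio 4.02), and Rag2, the other subunit, had 0. Among all genes with summed counts of 30 to 99, the range of Rag1, 49.1% were called. Dntt, which adds letters at the joints, had 11, 3 and 9 fragments. All 7 genes of the constant and CD3 list had 3 or more fragments in every library and 0 of 7 were called. Each had more than 300 fragments, a range in which 0.935% of all genes were called.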

How the data were processed

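For the 3 Treg libraries, raw counts of fragments for each gene were deposited by the authors. Per the file headers, featureCounts 1.4.6-p4 counted paired-end fragments with both ends aligned, on the reverse strand (option 2), over exons of GENCODE mouse M13, and the build is mm10 per the labels. For the aligner, a version is not given in the sources used here. Whereas the assay label names total RNA, the linked library protocol's name refers to polyadenylated RNA. The command sets nothing for fragments with more than 1 alignment or more than 1 gene, and this program drops those by default.

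Symbols came from GENCODE M21 by unversioned identifier (50376 of 50600 matched). The members, the lists and the rules were chosen with earlier results of these data known. TPM was computed here from counts and exon length, and CPM from counts and library totals. The comparison of libraries used a chi-square test of equal rates, with 2 degrees of freedom, because 1 group leaves edgeR's quasi-likelihood test nothing to compare. It used effective library sizes from edgeR 4.0.16 (trimmed mean of M values, TMM) in R 4.3.3, a summed count of 30 or more, and a lowest value of 0 set to 3 fragments. The step was run on simulated counts with counting error only, as the test assumes. Those counts cannot show how it behaves where libraries vary by more than counting error. Fragments enter that test as independent, and its calls concern these libraries and no condition. DESeq2 1.42.0 gave alternative size factors. Figures were drawn with matplotlib 3.10.9, and scipy 1.17.1, pandas 2.3.3 and numpy 2.4.6 ran under Python 3.11.15 for the rest.

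Segments to be named by rule were the 5 highest and the lowest detected functional segment of each class and both Trbd segments. The rule also took the 10 called segments with the widest ratio, the highest pseudogene of each class, and the segments of invariant receptors with their usual partners. Others, such as Trav9-4, Trbj1-4, Trbj1-6, Trbj1-7, Traj3, Trbv21, Trbv23, Trav11n and Trav14-3, were named after their values were seen. Of the segments under the rule, Traj42, Trav9d-1, Traj14, Trav9n-4, Traj26, Traj12, Traj7, Traj4 and Trbv13-3 are not described singly. Of the listed genes outside the segments, Xist and Ddx3y served to check the libraries. SDs measure only the spread between these libraries. The labels do not say whether these are separate animals. The Xist and Ddx3y counts differed between the libraries, and what makes up the spread of the segments was not tested. Intervals and floors cover counting error only, since no molecular identifiers were used.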

Additional observations from a re-analysis of the deposited data

How the results depend on the processing

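No direction of a mean reversed under any alternative run, although without pseudogenes, an alternative chosen after seeing the data, the log2 ratio of Trbj2 to Trbj1 was 0.19 and turned in replicate 2. The count of called segments, 36 of 121 tested, was 35 with DESeq2 size factors, 35 with library totals alone and 36 with TMM sizes from the other genes. Over all 13688 genes tested, these 3 runs called 1499, 1500 and 1505. With no filter on summed count the count was 50 of 172 segments, against 2821 of 20470 genes. At a ratio of 1.5 it was 50 of 121 segments, against 2205 of 13688 genes. It was 14 of 80 segments at a summed count of 100 or more, where fewer genes are tested, against 544 of 11729 genes. With no ratio minimum it was 69, where 70.5% of all genes tested were called. Leaving out 1 replicate gave 10 to 15 calls (14 of 110 without replicate 2, 15 of 114 without replicate 3, 10 of 97 without replicate 4). Over all genes tested, 777 of 13242, 523 of 13183 and 528 of 12377 were then called. Of the calls lost, 8 of 22, 5 of 22 and 15 of 26 were in segments left with fewer than 30 fragments, which were not tested. None of the 36 was called in all 3 of these comparisons and 10 were called in none, and a call in all 3 would need every pair of libraries to differ by the set ratio. Of the segments, 95 had 10 or more fragments in every library, 134 had 1 or more, and 122 had 1 TPM or more. At the shallowest library's depth 111.2 would be expected at 3 or more, and without 1 replicate the count was 113 to 137. The exponential of Shannon entropy in place of the inverse Simpson index gave 45.6 for Trav, 16.6 for Trbv and 12.8 for Trbj. Restricted to segments with 50% or more of their windows unique, an alternative chosen after seeing the data, the effective number was 22.2 for Trav and 13.1 for Trbv. Without pseudogenes it was 11.0 for Trbj, where the share of the 5 highest segments was then 54.3%. For Trbv that share was 47.7% from fragments and 48.6% without pseudogenes. Without 1 replicate the log2 ratio of Trbj2 to Trbj1 was 0.37 to 0.65 and the Traj effective number 19.0 to 29.2. No paired analysis was possible because there is 1 group. Depth limits the Traj segments most, with 232 fragments over 60 segments in replicate 3, and near-identical copies limit Trav.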

Other observations

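Of 15 gamma and delta segments found by symbol prefix, 6 had a fragment and 1 was detected. That segment, Trdv1, a V segment of the delta chain, had 20, 60 and 59 fragments in replicates 2, 3 and 4 (7.76 ± 4.08 TPM, SD, n = 3). It was highest in replicate 3. The delta constant gene Trdc had 125, 171 and 364 fragments. Gamma genes listed under other symbols in the annotation were not analysed here.

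The order of libraries also differed among V segments that were not called. Trav4-4-dv10 varied least among the leading Trav segments, with a coefficient of variation of 0.948%. Trav13-1 varied by 33.2%, with 3.52, 2.16 and 4.29 CPM in replicates 2, 3 and 4. Its adjusted p was 5.83e-09 (chi-square test), and its ratio of 1.99 lay under the 2-fold minimum for a call. Trav17, a segment chosen after its values were seen, had 23.5, 30.1 and 17.1 TPM.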
